A study of Drosophila melanogaster with 5 samples.

Results

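MLE (Maleless) peaks were examined at 7 genes that pattern the Drosophila melanogaster embryo: opa, hry, ush, Abd-B, Antp, Ubx and Doc1. They were chosen by the peak calls themselves: a peak of at least 1 of the 5 deposited lists overlapped the annotated gene extent widened by 500 bp on each side. This rule took 28 of the 4422 peaks in the lists and, once peaks of different lists sharing at least 1 bp were merged, 8 of 2263 regions. In all, 1389 of 17684 annotated genes on the main arms (X, 2L, 2R, 3L, 3R and 4) had such a peak, 5 other patterning genes among them. Because the peaks themselves chose the genes, the presence, number and rank of the peaks are given as a description, with no test.

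MLE unwinds RNA and is part of the machinery that raises transcription of the male X chromosome, and it is also present in females. CUT&RUN on female embryos was used to map it: a rat antibody against MLE tethers a nuclease, which releases the DNA around the protein for sequencing. Control embryos came from mothers in which the maternal driver MTD-GAL4 expressed an RNA hairpin against GFP. They were collected at 0-2 h and at 2-4 h, either side of the time when control passes from maternal products to the embryo's own genome (the maternal-to-zygotic transition), with 2 libraries at each age. A further library, called clampRNAi, came from 0-2 h embryos of MTD-GAL4 mothers expressing UAS-CLAMPRNAi[val22] against CLAMP, which recognises GA repeats through its zinc fingers. In all groups the crosses used Segregation Distorter meiotic drive stocks (SD72/CyO and SPSD/CyO among them), so that fathers transmitted X-bearing sperm and the progeny were female. Embryos were pooled from several crosses and timed egg-layings, so no library is 1 embryo and no cell type can be told from another. Nothing in the labels says which egg-laying gave which library, and the lists do not measure whether CLAMP was depleted. With 2 libraries at each control age an exact permutation test cannot give a p below 0.333, and clampRNAi had 1 library, so conditions were compared by setting values side by side.

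The genes belong to successive layers of the patterning hierarchy. Pair-rule genes divide the early embryo into alternating stripes: hry (hairy) encodes a basic helix-loop-helix repressor and opa (odd-paired) a zinc finger factor of the Zic family that acts as the embryo gastrulates. The Hox genes Antp (Antennapedia), Ubx (Ultrabithorax) and Abd-B (Abdominal-B) encode homeodomain factors that give thoracic and abdominal segments their identity. Doc1 (Dorsocross1) encodes a T-box factor of dorsal tissues, and ush (u-shaped) encodes a Friend-of-GATA zinc finger cofactor of the GATA factor Pannier rather than a classical DNA-binding activator. Most of them are silent or nearly so at the start of development and are transcribed around or after the transition.

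The lists differed in length and in kind. The 0-2 h controls had 723 and 1247 peaks in replicates 1 and 2, the 2-4 h controls 370 and 1589, and clampRNAi 493. Median peak width was 81 to 110 bp in 4 lists and 2190 bp in 2-4 h replicate 2, which stands apart from the others. The total signal of a peak is the authors' summed coverage over it, and the smallest total listed was 10424 and 5960 at 0-2 h in replicates 1 and 2, 13050 and 18175 at 2-4 h and 6840 after clampRNAi. Read depth and scaling are unknown, so signals were not compared between libraries. Peaks were ranked by total signal within their own list, as a percentile. Ranks from lists of different length cannot show a change in signal, so differences in rank are given as values alone.

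Peaks at opa, ush and Abd-B were called in all 5 libraries, the hry peak in 3, the Antp peak in 3, and the Ubx and Doc1 peaks in 1. In 0-2 h replicate 1, 5 of the 7 genes had a peak, where 2.53% of all main-arm genes did. The count was 4 in 0-2 h replicate 2 (4.08% of all genes), 4 in 2-4 h replicate 1 (1.52%), 5 in 2-4 h replicate 2 (6.08%) and 5 in clampRNAi (1.85%). Nothing is read from these shares, since the rule required a peak. Gene length goes with having a peak: at least 1 list had a peak at 7.85% of all genes, at 16.6% of the protein-coding genes as long as hry or longer, and at 62.8% of those as long as Abd-B or longer. Among the 7 genes, hry (3495 bp) and Doc1 (3668 bp) are short, opa spans 17.2 kb, Abd-B 45.03 kb, ush 64.3 kb, Ubx 77.8 kb and Antp 102.98 kb, so Abd-B, ush, Ubx and Antp lie in a length class in which most genes had a peak in some list. Of these 4, 3 had a peak in each of the 0-2 h controls, where 32.9% and 49.2% of protein-coding genes of that length did. The numbers were 2 in 2-4 h replicate 1 (21.9%), 3 in 2-4 h replicate 2 (47.6%) and 3 in clampRNAi (28.3%).

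**Figure D1:**
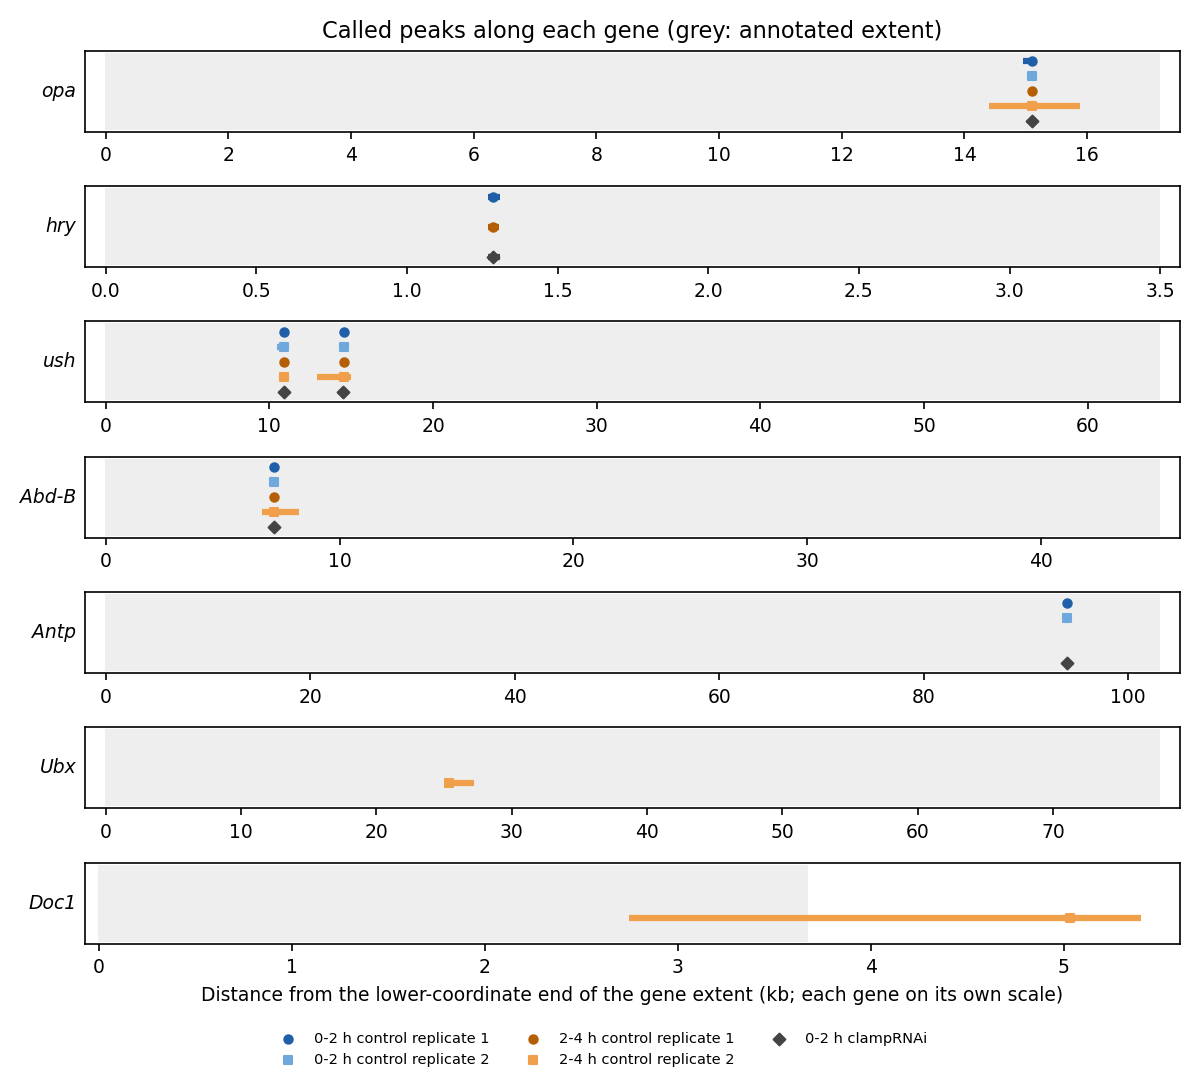
Called peaks (bars) and the midpoints of their maximum signal (points) along each gene, in kb from the lower-coordinate end of the annotated extent (grey), with 1 row per library and each gene on its own scale. Maxima of different libraries stack on the same position in opa, hry, ush, Abd-B and Antp, while the maximum of the Doc1 peak lies 1366 bp beyond the gene.

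The maximum lay within the gene extent for 27 of 28 peaks. For the same number of peaks it was at least 1000 bp from both annotated ends, Doc1 being the exception in both counts. The 28 peaks belong to 8 merged regions, so sites called in several lists are counted more than once. In a long extent most positions are at least 1000 bp from both ends. The matching share among other genes with a peak was not computed, so no trait of these genes is read from the counts. The gene table gives extents without strand or exons, so positions are counted from the lower coordinate and were not assigned to promoter, exon or intron. Of the 28 peaks 20 were narrower than the read length of 150 bp, and of these 1, at lower ush, came from 2-4 h replicate 2. Another gene was overlapped by 1 of the 28 peaks, the broad upper ush peak of 2-4 h replicate 2, which reached into the non-coding gene lncRNA:CR46258. All coordinates are 1-based on dm6.

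The pair-rule gene opa (3R, 4852813 to 4869979) carried the highest ranked of the peaks called in every library. Its peak spanned 4867772 to 4867961 (190 bp) in 0-2 h replicate 1, 4867871 to 4867951 (81 bp) in 0-2 h replicate 2, 4867880 to 4867952 (73 bp) in 2-4 h replicate 1, 4867210 to 4868704 (1495 bp) in 2-4 h replicate 2 and 4867879 to 4867950 (72 bp) in clampRNAi. All 5 peaks shared 71 bp, and the midpoints of their maxima lay within 2.5 bp of each other, 88.0% of the way along the extent and about 2064 bp from its upper end. The percentile of total signal was 89.6 and 88.7 at 0-2 h, 82.2 and 82.1 at 2-4 h and 87.8 in clampRNAi. By total signal, replicates of an age thus had similar ranks and clampRNAi lay just under the 0-2 h controls. By maximum signal the percentile was 93.2 and 90.7 at 0-2 h, 86.5 and 91.2 at 2-4 h and 90.3 in clampRNAi. The ages overlapped by that measure. The maximum signal, on each library's own scale, was 2251, 3796, 1655, 2019 and 1300 in the same order. Of the 244 main-arm regions called in all 5 libraries, opa stood at rank 51 by mean percentile. Over these 244 regions the midpoints of the maxima spread by a median of 3.5 bp, and by at most 5 bp in 74.2%. Close agreement of maxima between libraries was thus common and not particular to these genes.

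The other pair-rule gene, hry (3L, 8675759 to 8679253), had a peak of unusual shape that followed neither age nor genotype. It was called at 8677028 to 8677067 in 0-2 h replicate 1 and in clampRNAi and at 8677028 to 8677063 in 2-4 h replicate 1, and in neither replicate 2. The percentile of total signal was 92.7 in 0-2 h replicate 1, 89.2 in 2-4 h replicate 1 and 95.1 in clampRNAi, above every other member peak of the same list. Its totals of 131099, 139368 and 161929 are on other scales than the replicate 2 lists, in which no peak lay within 78805 bp of the gene. That pattern of calls was rare: 2 of 1742 main-arm regions (0.115%) were called in both replicates 1 and clampRNAi and in neither replicate 2.

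The hry peak was 40 bp wide in 0-2 h replicate 1 and clampRNAi and 36 bp in 2-4 h replicate 1, far below the read length of 150 bp. In 2-4 h replicate 1 no peak of the list was narrower, and in 0-2 h replicate 1 and clampRNAi 1 peak was. Mean signal per base reached 84.8%, 94.3% and 84.9% of the maximum in 0-2 h replicate 1, 2-4 h replicate 1 and clampRNAi, against list medians of 56.9%, 56.2% and 58.9%. The signal was thus close to a flat block, with the same first base in all 3 lists and a stretch at the maximum of 19, 19 and 15 bp. The mean of the opa peak reached 23.5% of its maximum in 0-2 h replicate 1, 60.7% in 2-4 h replicate 1 and 61.5% in clampRNAi. That of the upper ush peak reached 80.2%, 76.4% and 75.7% in the same libraries, nearer to hry. What produced the block and its absence from both replicates 2 was not tested.

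**Figure D2:**
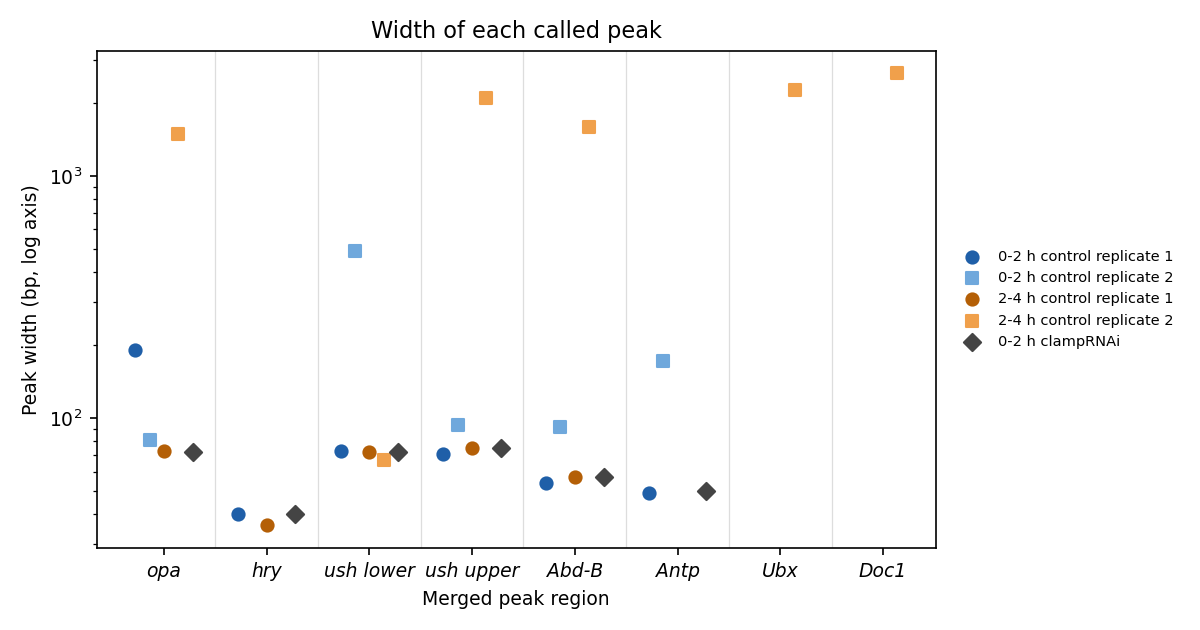
Width in bp (log axis) of each called peak, by merged region and library. Outside 2-4 h replicate 2 (orange squares) widths ran from 36 bp at hry to 488 bp at ush, and in that library the upper ush, opa, Abd-B, Ubx and Doc1 peaks were 1495 to 2650 bp wide while the lower ush peak was 67 bp.

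The GATA cofactor gene ush (2L, 476220 to 540560) held a pair of peaks in every library, with maxima 3664 bp apart in 0-2 h replicate 1. The lower peak spanned 487045 to 487117 in 0-2 h replicate 1, 486662 to 487149 in 0-2 h replicate 2, 487047 to 487118 in 2-4 h replicate 1, 487046 to 487112 in 2-4 h replicate 2 and 487044 to 487115 in clampRNAi. Its maxima fell within 2.5 bp of each other at 16.9% of the extent. Its percentile was 86.4 and 80.2 at 0-2 h, 77.0 and 46.9 at 2-4 h and 79.7 in clampRNAi. It was high in the 0-2 h libraries and in 2-4 h replicate 1, and lower by total signal in 2-4 h replicate 2, where it was 67 bp wide in a list of broad peaks. Ranked by maximum signal instead, it stood at 80.9 in that library and at 89.2, 82.1, 78.2 and 82.8 in the others, taken in the order above.

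The upper ush peak was weaker. It spanned 490716 to 490786 in 0-2 h replicate 1, 490694 to 490786 in 0-2 h replicate 2, 490715 to 490789 in 2-4 h replicate 1, 489143 to 491233 in 2-4 h replicate 2 and 490712 to 490786 in clampRNAi, with maxima within 8 bp of each other at 22.6% of the extent. Its percentile was 55.9 and 54.9 at 0-2 h, 30.5 and 0.944 at 2-4 h and 51.1 in clampRNAi. Both 2-4 h values lay under all 3 values at 0-2 h, and that of replicate 2 rested on a total of 18289, just inside a list whose smallest total was 18175. By maximum signal the same peak stood at 69.1 in 2-4 h replicate 2 and at 23.9 in 2-4 h replicate 1, so by that measure the ages overlapped.

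Of the Hox genes, Abd-B (3R, 16927212 to 16972236) alone had a peak in all 5 libraries. The peak spanned 16934369 to 16934422 (54 bp), 16934333 to 16934424 (92 bp), 16934364 to 16934420 (57 bp), 16933898 to 16935494 (1597 bp) and 16934366 to 16934422 (57 bp) in 0-2 h replicates 1 and 2, 2-4 h replicates 1 and 2 and clampRNAi. The maxima lay within 5 bp of each other, 7179 to 7184 bp from the lower end of the gene. The percentile was 55.6 and 66.9 at 0-2 h, 32.4 and 52.9 at 2-4 h and 45.6 in clampRNAi. By total signal the values at the 2 control ages did not overlap, although their gap was smaller than the distance between replicates, and clampRNAi fell between the 2-4 h values. By maximum signal the percentile was 68.9 and 73.6 at 0-2 h, 48.4 and 76.5 at 2-4 h and 55.8 in clampRNAi, so by that measure the ages overlapped.

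Antp (3R, 6896253 to 6999228) was called in the 3 libraries of 0-2 h embryos and in neither 2-4 h library. The peak spanned 6990242 to 6990290 in 0-2 h replicate 1, 6990145 to 6990316 in 0-2 h replicate 2 and 6990242 to 6990291 in clampRNAi, with maxima within 5 bp of each other at 91.3% of the extent. Its percentile was 14.9 and 50.2 in the 0-2 h controls and 0.811 in clampRNAi, where its total of 6924 was close to the smallest of the list, 6840. The Antp totals in the 0-2 h controls were 11848 and 16257, on other scales than the 2-4 h lists. Whether Antp fell below the limits of the 2-4 h lists or lost its signal by 2-4 h was not tested. Among main-arm regions, 9.13% had this pattern in the control libraries, and among genes 0.204% had a peak in all 3 lists of 0-2 h embryos and in no other. Of the protein-coding genes as long as Abd-B or longer, a class that holds Antp, 2.41% did.

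Ubx (3R, 16656623 to 16734426) and Doc1 (3L, 9041375 to 9045042) were called in 2-4 h replicate 2 alone, as broad, low peaks. The Ubx peak spanned 16681585 to 16683848 (2264 bp), 32.6% of the way along the gene at its maximum, with a percentile of 6.36. The Doc1 peak spanned 9044123 to 9046772 (2650 bp) with a percentile of 20.8, and 920 bp of it lay inside the gene. The maximum signal of each was 18, against a list median of 53. The maximum of the Doc1 peak lay 1366 bp beyond the annotated end, so Doc1 met the rule through the flank of the peak. Regions called in that library alone, Ubx and Doc1 included, numbered 618, or 35.5% of main-arm regions, and had a median width of 3587 bp, a median maximum of 18 and a median percentile of 26.1. Of these peaks 9.71% were narrower than the Ubx peak and 13.1% had a lower total signal, so Ubx stood near their low end. For the Doc1 peak the shares were 21.7% and 39.5%. Replicate 1 of the same age called neither.

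**Figure D3:**
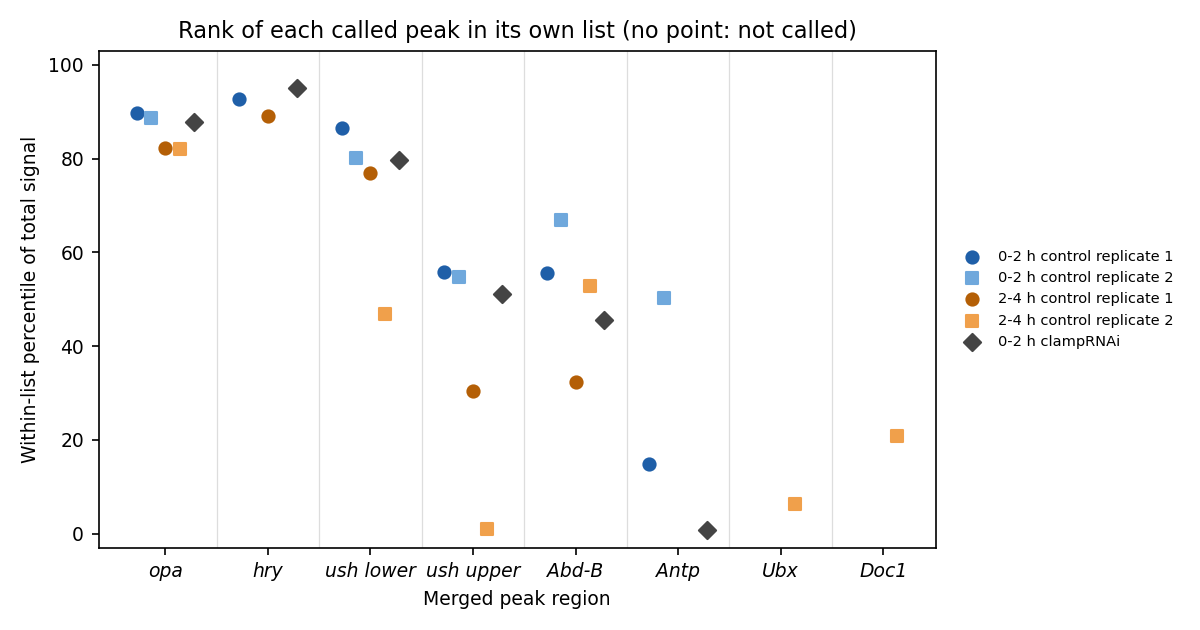
Percentile of total signal of each called peak within its own list, by merged region and library, with no point where a region was not called. The opa points lie between 82.1 and 89.6 and the hry points between 89.2 and 95.1, whereas the upper ush, Abd-B and Antp points spread widely and Ubx and Doc1 have 1 point each.

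Taking the regions by age, 5 of the 8 were called in both 0-2 h controls (29.4% of all main-arm regions were), 4 in both 2-4 h controls (14.1%) and the same 4 in all 5 libraries (14.0%). These 4 were opa, both ush regions and Abd-B. No member region that both 2-4 h controls called was missing from both 0-2 h controls. The number of regions called was 6 and 5 at 0-2 h and 5 and 6 at 2-4 h, so it was 1 lower at 2-4 h within replicate 1 and 1 higher within replicate 2. Within replicate 1 the region not called at 2-4 h was Antp. Within replicate 2, Antp was called at 0-2 h alone and Ubx and Doc1 at 2-4 h alone.

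After maternal RNAi against CLAMP no member region of the 0-2 h controls was lost from the list. All 6 regions called in 0-2 h replicate 1 were called in clampRNAi, as 71.8% of that library's main-arm regions were. All 5 regions of 0-2 h replicate 2 were too, as were 39.8% of its main-arm regions. Of regions called in both 0-2 h controls, 5 of 5 members and 80.7% of all main-arm regions were called in clampRNAi. Nothing is read from these shares, since peaks of these lists, clampRNAi among them, chose the members. The member peaks of 0-2 h replicate 2 also ranked from 50.2 to 88.7, while the 39.8% covers regions of any rank. No member region was called in clampRNAi and in neither 0-2 h control, and Ubx and Doc1 were called in no 0-2 h library. Peak edges in clampRNAi lay within 4 bp of those of 0-2 h replicate 1 at hry, Abd-B, Antp and both ush regions, while at opa the clampRNAi peak was 72 bp wide against 190 bp. Beside 0-2 h replicate 2 it was the reverse: the opa edges lay 8 and 1 bp apart, and the first bases of lower ush and Antp 382 and 97 bp apart. Set side by side, the percentile of total signal of hry was 95.1 in clampRNAi and 92.7 in the 0-2 h control that called it, while the 5 other regions stood lower in clampRNAi than in both 0-2 h controls. For lower ush the value was 6.73 and 0.476 points below replicates 1 and 2, which lay 6.25 points apart. For upper ush it was 4.76 and 3.74 points below controls that lay 1.03 points apart. For Abd-B it was 9.96 and 21.2 points below controls 11.3 points apart. For Antp it was 14.1 and 49.4 points below controls 35.3 points apart. Ranked by maximum signal, lower ush stood at 82.8 in clampRNAi, above the 82.1 of 0-2 h replicate 2, and Antp at 28.3, below the controls at 45.4 and 62.5. For opa the value was 1.80 and 0.863 points below replicates 1 and 2, which lay 0.934 points apart. The clampRNAi list had 493 peaks against 723 and 1247, and the part of list length in these ranks was not tested. No share of other regions standing lower in clampRNAi is given beside the 5, so no trait of these genes is read from them.

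Ratios between regions of the same library do not depend on its depth, and they were computed from maximum signals after the values had been seen. The order of opa, lower ush, Abd-B and upper ush by maximum signal, from highest to lowest, was the same in all 5 libraries. The size of the steps was not. The maximum of opa was 1.39 and 2.90 times that of lower ush in 0-2 h replicates 1 and 2, 1.40 and 3.43 times in 2-4 h replicates 1 and 2 and 1.68 times in clampRNAi. Against upper ush the ratio was 5.07 and 11.1, 4.90 and 9.995, and 4.91 in the same order. Both replicate 2 libraries were thus high at opa relative to ush, at either age, and clampRNAi lay with the replicates 1.

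Abd-B showed the same split relative to upper ush, at 1.45 and 2.46 at 0-2 h, 1.53 and 2.26 at 2-4 h and 1.25 in clampRNAi. Relative to lower ush, Abd-B stood at 0.395 and 0.641 at 0-2 h, 0.439 and 0.776 at 2-4 h and 0.430 in clampRNAi, again higher in both replicates 2. Between the regions on 3R the same split was smaller, with opa at 3.51 and 4.52 times Abd-B at 0-2 h, 3.19 and 4.43 times at 2-4 h and 3.92 times in clampRNAi. Computed from total signals, opa over Abd-B was 2.85 in 2-4 h replicate 2, below every other library. Between the ush regions the ratio of lower to upper was 3.66 and 3.84 at 0-2 h, 3.49 and 2.91 at 2-4 h and 2.91 in clampRNAi. It did not divide the libraries by replicate number, and both 2-4 h values lay below both 0-2 h controls, with a gap smaller than the difference between the 2-4 h replicates. The hry maximum was 1.72 times that of opa in 0-2 h replicate 1, 2.48 times in 2-4 h replicate 1 and 3.67 times in clampRNAi. The labels do not say what libraries of the same replicate number shared.

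**Figure D4:**
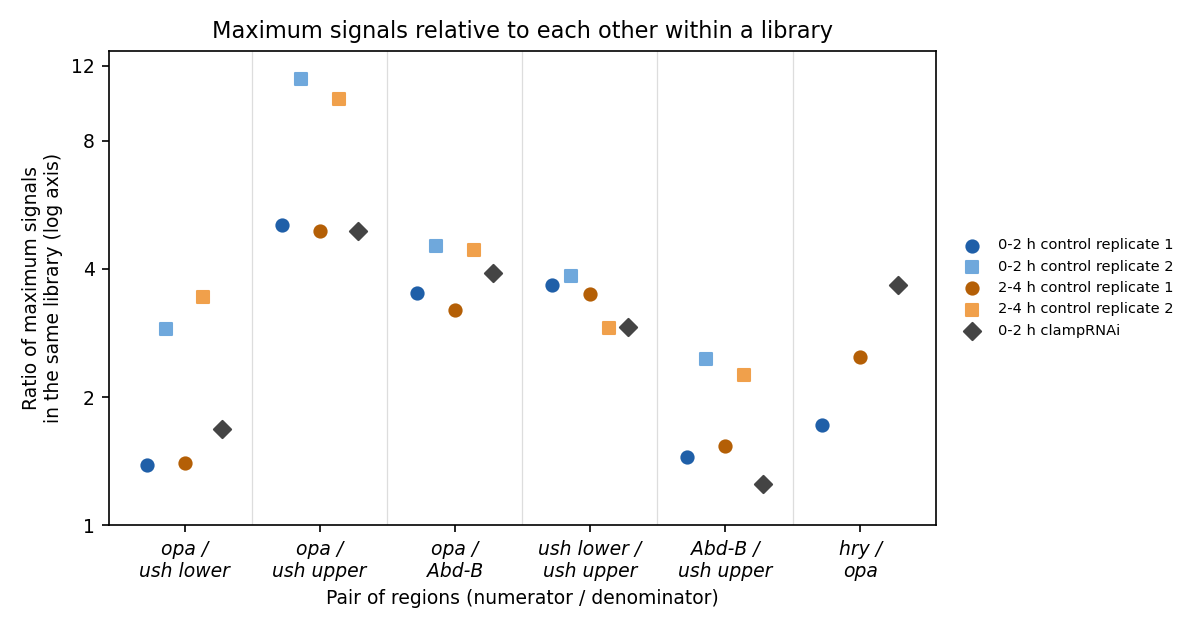
Ratio of the maximum signals of 2 regions in the same library (log axis), for 6 pairs of regions. For opa over either ush region, opa over Abd-B and Abd-B over upper ush, both replicate 2 libraries (squares) lie above both replicates 1 (circles) and clampRNAi (diamond), whereas lower over upper ush shows no such split by replicate number.

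Beyond the widened extents, the nearest peak of any list lay 18.6 kb from Abd-B, 30.02 kb from Antp, 49.8 kb from opa, 59.2 kb from Doc1, 78.8 kb from hry, 79.9 kb from Ubx and 86.2 kb from ush. The widening by 500 bp therefore decided no member, and the only peak that did not lie fully inside its gene was that of Doc1. The neighbour nearest to Abd-B belonged to the bithorax complex, the cluster that holds Ubx, abd-A and Abd-B. It lay inside lncRNA:iab8, a non-coding gene of that complex (3R, 16831116 to 16923231), and was the only region between Ubx and Abd-B. It was called in all 5 libraries, at 16908356 to 16908399 in both replicates 1, with percentiles of 57.5 and 59.7 at 0-2 h, 36.8 and 19.4 at 2-4 h and 57.0 in clampRNAi. In the 4 libraries other than 2-4 h replicate 2 it was 44 to 65 bp wide, as narrow as the Abd-B peak. The gene abd-A (3R, 16807214 to 16830049) had no peak in any list.

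Most other patterning genes had no peak. Lists of gap, maternal and dorsoventral, pair-rule, segment polarity, Hox, T-box and cofactor genes held 47 genes, of which 40 were not among the 7. A peak in at least 1 list was found at 5 of those 40 (12.5%), where 8.37% of all protein-coding genes had one. The 7 were set apart because they had a peak, so the 40 hold fewer such genes by construction. With the 7 included, 12 of the 47 had one. Gene length also differed between the lists, with medians of 2567.5 bp for gap, 2533 bp for pair-rule, 9332 bp for segment polarity and 30563 bp for Hox genes. Nothing is therefore read from a class without other peaks. None of the 6 gap genes (hb, Kr, kni, gt, tll and hkb) and none of the 5 segment polarity genes (en, inv, gsb, gsb-n and ci) had a peak. The 7 other pair-rule genes (eve, ftz, run, odd, prd, slp1 and slp2) and the 5 other Hox genes (lab, pb, Dfd, Scr and abd-A) had none either. The related T-box genes Doc2, Doc3, mid and H15 also had no peak.

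Of the 5 exceptions, 4 were called in the same libraries as 1 or more of the 7 genes. In all 5 libraries tup (2L, 18859507 to 18881261), which encodes a LIM-homeodomain factor, had a peak, 66 to 72 bp wide outside 2-4 h replicate 2, at percentiles of 77.2 and 81.2 at 0-2 h, 62.2 and 57.2 at 2-4 h and 65.3 in clampRNAi. Like Antp, hth (3R, 10507561 to 10639568), the gene of the Hox cofactor Homothorax, was called in the 3 libraries of 0-2 h embryos and in no other, and its peaks ranked from 6.29 in clampRNAi to 45.95 in 0-2 h replicate 2. The repressor gene brk (X, 7307939 to 7311132) had peaks in the pair of 0-2 h controls alone, at 7.05 and 51.5, a combination of libraries that no member region showed. Like Ubx and Doc1, pnr, which encodes the GATA factor that ush binds, and tsh, a zinc finger gene of trunk identity, were called in 2-4 h replicate 2 alone, as peaks 4280 and 2769 bp wide with maxima of 20 and 18.

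Genes elsewhere with the most similar ranks were found by the Euclidean distance between percentiles over the 5 libraries, taking the highest peak of each gene and 0 where there was none, among 1158 other protein-coding genes with a peak. For opa 16 genes lay within a distance of 10. The nearest to ush was CG4467 on 3R at 7.29, to Abd-B sif on 3L at 6.96, and to Antp Eip93F on 3R at 1.83, although Eip93F was not called in clampRNAi. For Ubx and Doc1, known from 1 list each, 176 and 187 genes lay within 10, and Gpdh1 and MFS12 were the nearest. For hry no gene lay within 10, and the nearest, CG42699 on X, was 64.01 away. Unlike hry, CG42699 was also called in 0-2 h and 2-4 h replicate 2, at 37.7 and 49.8. By calls alone, 2 of 17684 main-arm genes (0.0113%), hry among them, had a peak in both replicates 1 and clampRNAi and in neither replicate 2.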

How the data were processed

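MLE CUT&RUN libraries of female embryos were sequenced in pairs of 150 bp reads, per the labels. The deposited files are 1 peak list per library, in the layout of SEACR, without a header. For each peak the authors' deposited signal columns give total signal (summed coverage) and maximum signal. The tools named, without roles, in the submitters' processing notes are SEACR 1.3, Bowtie2 2.4.4, Trimmomatic 0.40, bcl2fastq 2.17 and deepTools, with the build dm6. The control track, threshold, spike-in scaling and depth were not given in the sources used here, so no interval is given.

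Gene extents came from RefSeq's Release 6 plus ISO1 MT assembly, which is dm6. Overlap of at least 1 bp with the extent widened by 500 bp counted. Percentiles are the share of a list's peaks with total signal at or below the peak's. Scripts used Python 3.11.15 and pandas 2.3.3, and the overlap step was tested on simulated intervals. No sequence was read, and the planned motif search was not run.

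Groups came from the sample titles. The members and gene lists were chosen with earlier results of these data known. Genes named were the 7 members, list genes with a peak, genes overlapped by a member peak and each member's nearest gene by rank pattern. The gene nearest to opa is not reported here. The gene lncRNA:iab8 and the list genes without a peak were named after their values were seen. Alternatives changed the widening, the overlap, the lists' length, peak width and the ranking.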

Additional observations from a re-analysis of the deposited data

How the results depend on the processing

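No widening and widening by 2000 bp changed no count. Requiring 50% of the peak inside the extent widened by 500 bp changed none either. Doc1 met this through the widening, as 920 of the 2650 bp of its peak lay in the gene itself. Requiring the midpoint of the maximum inside the widened extent removed Doc1, leaving 7 merged regions. When all lists were shortened to their 370 strongest peaks by total signal, member genes with a peak became 2 in 0-2 h replicate 2 and 1 in 2-4 h replicate 2, with as many peaks. In 0-2 h replicate 1 and clampRNAi 4 genes and 5 peaks remained in each. Merged regions became 5, those of 2-4 h replicate 1, so Antp, Ubx and Doc1 had no peak left in any list. Regions called in both 0-2 h controls became 2 (both also in clampRNAi), and those called in both 2-4 h controls and in all 5 libraries 1 each. In the upper 50% of each list, 2-4 h replicate 1 kept 3 peaks, 2-4 h replicate 2 had 2 genes and 2 peaks, and clampRNAi had 3 genes. Merged regions became 6, and regions called in both 2-4 h controls and in all 5 libraries became 1 each. Both 0-2 h controls then shared 4 regions, and 3 of these 4 were called in clampRNAi. Among peaks at least 200 bp wide, genes and peaks were 0 in 0-2 h replicate 1, 2-4 h replicate 1 and clampRNAi and 1 in 0-2 h replicate 2, and every count of regions shared between libraries was 0. By construction these settings hold fewer peaks.

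Ranked by maximum signal, the median percentile of member peaks moved from 71.2 and 66.9 to 79.0 and 73.6 in the 0-2 h controls. It moved from 33.9 to 72.8 in 2-4 h replicate 2 and from 65.4 to 69.3 in clampRNAi. With main-arm peaks alone, ranked by total signal, the largest change was in 2-4 h replicate 2, from 33.9 to 41.5. The medians were then 71.5 and 66.5 in the 0-2 h controls, 76.6 in 2-4 h replicate 1 and 65.5 in clampRNAi. The cause was not tested. Using total signal for the ratios, an alternative chosen after seeing the data, Abd-B over upper ush became 0.993 in 0-2 h replicate 1 and 0.871 in clampRNAi, from 1.45 and 1.25, and Abd-B over lower ush became 1.16 in 2-4 h replicate 2, from 0.776, each on the other side of 1.

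Leaving out each library in turn gave 6 to 8 merged regions, 5 to 6 called at 0-2 h (as many also in clampRNAi), 4 to 6 at 2-4 h and 4 in every remaining library, where the age left with 1 list counts that list alone. Ubx and Doc1 were lost without 2-4 h replicate 2.

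No test was run, paired or unpaired. Within replicate numbers, as a replicate block would pair them, the 2-4 h minus 0-2 h difference in member regions was -1 and 1, against 0 on average. Depth is unknown, so a region missing from a list is only not listed.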
